A study of Mus musculus with 12 samples.

Results

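KP1 is a mouse small cell lung cancer line, and this comparison sets KP1 cells with an shRNA against Nfib (KP1-sh2, 2 samples) against KP1 cells with a control shRNA (KP1-shLuc, 2 samples). These are 4 of the 12 RNA-seq samples of the series, chosen by the line and the shRNA in the sample titles. Both groups carry the genotype Trp53-/-;Rb1-/-, so the loss of p53 and Rb1 is shared by knockdown and control, and KP1 is labelled Nfib high. The cells were grown as floating spheres in RPMI medium with 10% serum, and KP1 is 1 tumor-derived line, so the results hold for that line. The line 16T, also Trp53-/-;Rb1-/- and Nfib high, carried shRNAs of the same names (2 samples each). The line KP22, Trp53-/-;Rb1-/- and labelled Nfib low, carried an empty vector or Nfib cDNA (2 samples each). The labels do not state whether duplicates are separate cultures: each p reflects the spread among the samples of the authors' fit alone, which may be technical. Whether that spread was estimated over the 4 KP1 samples or all 12 is not known here. The authors deposited fitted results and no values per sample, so each gene has a log2 fold change of knockdown over control with its standard error (SE, written after ±), and the depth of each library is unknown. The mean normalized count of a gene, called its mean, is pooled over the libraries of the fit. It is not the level in KP1 or in the KP1 controls. Of 28112 rows of the authors' deposited table, 23226 carried 1 gene name and were used, and 14504 of these had an adjusted p in KP1. Rises and falls are reported for genes with that adjusted p below 0.05.

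Nuclear factor I (NFI) proteins are transcription factors that bind DNA as dimers at palindromic sites and act in the development of brain and lung. Small cell lung cancer is a neuroendocrine tumor whose cells express genes of neurons and hormone-secreting cells, such as chromogranins and synaptophysin. Nfib is recurrently gained in mouse models of this cancer.

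Nfib, on chromosome 4 (82290173 to 82505779, mm10), was lower with the Nfib shRNA: the authors' deposited table gave -1.32 ± 0.035 (adjusted p = 2.03e-300, mean normalized count 30668), which is 40.0% of the control level. Since the table's headings leave the direction unstated, Nfib itself was used to set it and cannot serve to check the labels. A lower level in bulk RNA can come from less RNA per cell or from fewer cells that express a gene, which cannot be told apart here. Among the other NFI genes Nfic rose (0.19 ± 0.048), and neither Nfia (0.02 ± 0.13, adjusted p = 0.939) nor Nfix (-0.04 ± 0.056, adjusted p = 0.613) was called in the authors' deposited table. Transcripts of Rb1 (mean 6555) and Trp53 (mean 411) were counted in the authors' deposited table over all exons, so the deleted parts are not separated from the rest. All 13 neuroendocrine markers examined were tested, each with a mean of at least 298. Of these, 6 rose and 4 fell, where 37.2% of all 14504 tested genes were called, 17.6% higher and 19.6% lower. Scg2 (0.91 ± 0.049) and Ddc (1.02 ± 0.036) rose, and the chromogranin genes Chga (-0.58 ± 0.036) and Chgb (-0.52 ± 0.054) fell in the authors' deposited table. Of 8 markers of non-neuroendocrine tumor cells 6 were tested, 1 rose and 3 fell, among them Cd44 (-0.75 ± 0.12) in the authors' deposited table. Of 7 leukocyte markers, 1 was tested and 0 were called, with means from 0 to 157, and Cd3e stood at 0. Col3a1 of the fibroblast, Emcn of the endothelial and Scgb1a1 of the airway markers also stood at 0. In these last 3 lists Pdgfra (-0.47 ± 0.069) and Kdr (-1.62 ± 0.21) fell, and no other marker was called in the authors' deposited table.

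Of the 5402 genes called in KP1, 2558 were higher and 2844 lower with the Nfib shRNA. The median size of their changes was 0.38 on the log2 scale. Changes of at least 2-fold numbered 408 up (2.81% of tested genes) and 456 down (3.14%), and changes of at least 8-fold 22 up and 7 down. Against a threshold of 0.5, the test in the authors' deposited table called 709 of 15483 genes (4.58%). If the statistic was referred to a t distribution (6 degrees of freedom) rather than the normal, 3301 of the 14504 tested genes were called. Where this changes the rises or the falls of a gene list by more than 1.5 times, both numbers follow in parentheses. Recentring on the median gene (-0.02) gave 2794 rises and 2652 falls, and the more frequent direction therefore changed with the centring. Calls were fewer at low counts, where the SE is larger: 15.9% of genes with a mean under 100 were called and 56.0% of those with a mean of at least 10000. When genes were divided into 4 equal parts by exon length, 546 rose and 370 fell in the shortest (median 964.5 bp), and 787 rose and 946 fell in the longest (5475.5 bp). Length was not tested as a source of the changes. The gene with the highest mean of all rows, Mycl (242149), a Myc family oncogene of small cell lung cancer, fell to 37.7% of control (-1.41 ± 0.030) in the authors' deposited table. Its relative Mycn (mean 741) had -1.14 ± 0.13 in the authors' deposited table, also a fall, and both were chosen for mention after their values were seen.

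**Figure D1:**
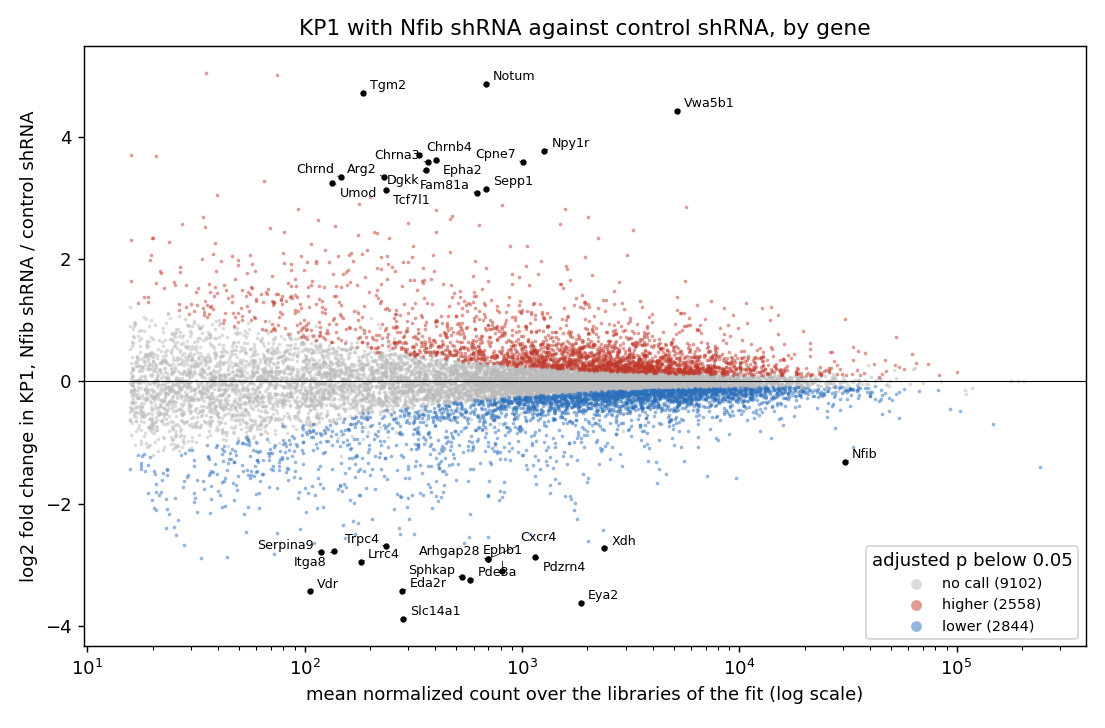
Log2 fold change in KP1 (vertical) against the mean normalized count of each gene (horizontal, log scale), 1 point per tested gene, red where higher (2558) and blue where lower (2844) with an adjusted p below 0.05. Black points mark Nfib and the 15 largest rises and falls with a mean of at least 100, which reach 4.86 and -3.89.

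The 15 largest rises ran from 4.86 for Notum down to 3.08 for Fam81a, and the 15 largest falls from -3.89 for Slc14a1 to -2.70 for Trpc4 in the authors' deposited table. Secreted and surface proteins were among the rises below the first 8. Umod, which encodes the secreted protein uromodulin, rose by 3.24 ± 0.31, and Sepp1, a plasma selenium carrier, rose by 3.14 ± 0.13 in the authors' deposited table. Chrnd, a subunit of the muscle acetylcholine receptor, rose by 3.34 ± 0.31 in the authors' deposited table, with a pooled mean of 147. Enzymes were also present: the mitochondrial arginase gene Arg2 had 3.35 ± 0.25 and the diacylglycerol kinase gene Dgkk 3.46 ± 0.18 in the authors' deposited table. Exons of Arg2 that overlap another gene had 0.36 ± 0.14 in the authors' deposited table, so the size of the Arg2 rise rests on its separate exons. Tcf7l1, a repressor of Wnt target genes, rose by 3.13 ± 0.30 in the authors' deposited table.

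Of the largest falls, Cxcr4, the chemokine receptor for CXCL12, had -2.90 ± 0.19, and Itga8, an integrin alpha subunit, had -2.78 ± 0.28 in the authors' deposited table. The rest comprised Arhgap28 (-2.91 ± 0.16), Pdzrn4 (-2.87 ± 0.11), Serpina9 (-2.80 ± 0.31), a serpin, and Xdh (-2.73 ± 0.086), xanthine dehydrogenase of purine breakdown, in the authors' deposited table. Trpc4, a cation channel subunit, had -2.70 ± 0.23, and its exons held under a joined name had -3.12 ± 0.26 in the authors' deposited table. Of the 15 rises, 14 also rose in 16T, and all 15 falls also fell there, where 20% and 25.3% of the same tested genes were called higher and lower. In KP22, where Nfib was raised and 21.6% of genes were lower and 23.1% higher, 12 of the 15 rises fell and 8 of the 15 falls rose. The exceptions that moved the same way in KP22 were Dgkk (1.21 ± 0.27), Pde3a (-4.32 ± 0.20) and Slc14a1 (-1.18 ± 0.38) in the authors' deposited table.

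**Figure D2:**
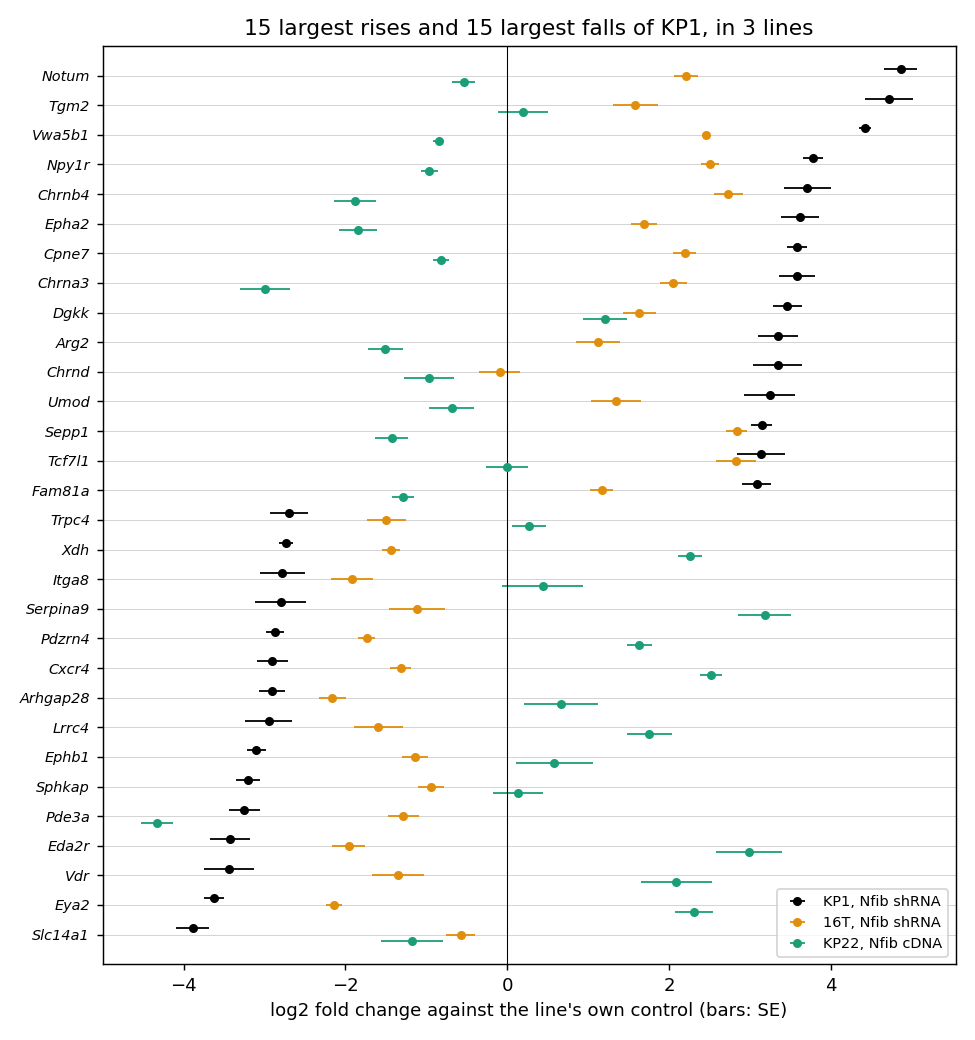
Log2 fold change with its SE (horizontal) of the 15 largest rises and 15 largest falls of KP1 (rows), for KP1 in black, 16T in orange and KP22 with Nfib cDNA in green. In KP1 and 16T the points lie on the same side of 0 except for Chrnd, and the KP1 point is farther from 0 in each row; in KP22 most lie on the other side.

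The 300 bases around the start of these genes were searched for the 15-letter NFI palindrome, TTGGC and GCCAA with 5 free bases between them, and for either 5-letter arm alone, TTGGC or GCCAA, which are 1 word read on both strands. Promoters from RefSeq (GRCm38.p6, 250 bases before to 50 after the start) were matched for 10624 of the 14504 tested genes and for 19 of the 30 named ones. The palindrome was in 4 of 13554 promoter windows of tested genes and in 0 of those of the 30 genes. A 5-letter arm, which overlaps the palindrome, was in 49.8% of windows of tested genes, 49.9% for genes that rose and 47.8% for those that fell. It was in 46.0% of windows of genes at least 2-fold higher, 51.1% of those at least 2-fold lower, and 46.7% of all windows of the table. Of the 19 genes with a window, 9 held an arm. Shown here are the window with the most arms, that of a receptor gene of the rising pair on chromosome 9, and that of a falling gene, with the arms in capitals. They are Umod (chr7:119479213-119479512), Chrna3 (chr9:55026513-55026812) and Eda2r (chrX:97377160-97377459), each on the minus strand and written 5′ to 3′ along the gene.
Umod: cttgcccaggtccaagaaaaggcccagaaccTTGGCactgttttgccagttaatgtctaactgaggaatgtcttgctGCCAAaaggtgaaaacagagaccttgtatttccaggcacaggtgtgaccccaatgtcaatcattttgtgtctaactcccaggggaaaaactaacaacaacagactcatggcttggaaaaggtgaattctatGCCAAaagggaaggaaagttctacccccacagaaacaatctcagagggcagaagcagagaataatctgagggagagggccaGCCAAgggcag
Chrna3: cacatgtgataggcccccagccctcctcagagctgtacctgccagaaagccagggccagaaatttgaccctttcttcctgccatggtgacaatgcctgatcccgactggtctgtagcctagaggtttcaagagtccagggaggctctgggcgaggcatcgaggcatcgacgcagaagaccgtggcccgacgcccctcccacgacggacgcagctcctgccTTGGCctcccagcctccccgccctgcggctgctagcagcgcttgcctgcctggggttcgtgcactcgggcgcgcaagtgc
Eda2r: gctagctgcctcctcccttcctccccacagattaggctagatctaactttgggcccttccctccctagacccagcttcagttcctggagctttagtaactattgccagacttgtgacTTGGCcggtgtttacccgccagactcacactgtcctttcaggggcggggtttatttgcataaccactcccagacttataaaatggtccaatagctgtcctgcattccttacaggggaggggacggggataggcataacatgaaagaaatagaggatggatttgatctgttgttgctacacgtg
The windows hold 4, 1 and 1 arms. A match describes letters and is not a binding site.

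Receptors of nerve and gut peptides fell more often than they rose. Gene lists were set by family, and examples are the larger changes among members with a mean of at least 100 unless a lower mean is given. Counts of each list are to be read beside the 37.2% of all tested genes that were called, 17.6% higher and 19.6% lower. Of 61 listed peptide receptor genes, 26 were tested, 5 rose and 11 fell (3 and 8 with the t distribution), with a median of -0.33 against -0.02 for all tested genes. Npy1r, a receptor of neuropeptide Y, rose by 3.77 ± 0.12, and Vipr1, a receptor of vasoactive intestinal peptide, by 1.37 ± 0.13 in the authors' deposited table. Those that fell in the authors' deposited table included Glp1r (-2.07 ± 0.19), Adcyap1r1 (-1.90 ± 0.19), Ntsr2 (-1.65 ± 0.14) and Oprd1 (-1.19 ± 0.086). They encode the receptors of glucagon-like peptide 1 and PACAP, a neurotensin receptor and the delta opioid receptor. Of 52 listed peptide genes, 19 were tested, 6 rose and 1 fell (2 and 0 with the t distribution; median 0.41), and the called share of 36.8% was close to the 37.2% of all genes. Iapp, which encodes amylin, rose by 1.95 ± 0.20 and Calca, which encodes calcitonin and CGRP, by 0.90 ± 0.048 in the authors' deposited table.

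Acetylcholine receptor subunits rose at 3 of 8 tested genes and fell at 1, of 16 listed (3 and 0 with the t distribution; median 0.29). Their called share was 50%, against 37.2% of all tested genes. Chrna3 (3.58 ± 0.22) and Chrnb4 (3.71 ± 0.29) lie side by side on chromosome 9 (55011343 to 55048544), and both rose at least 8-fold in the authors' deposited table. Chrna5, the next gene of that cluster, had -0.85 ± 0.40 with an adjusted p of 0.0897 in the authors' deposited table and was not called. The gene that fell, Chrna4 (mean 84.8), had -0.96 ± 0.34 in the authors' deposited table, a call lost with a t distribution. Of 7 modulators and chaperones, 0 rose and 2 fell (0 and 1 with the t distribution), among them Lynx1 (-1.42 ± 0.18), a membrane-anchored protein that dampens nicotinic receptors, in the authors' deposited table. In catecholamine and serotonin synthesis and storage 4 of 10 tested genes rose and 3 fell. Th, whose product tyrosine hydroxylase starts catecholamine synthesis, rose by 1.88 ± 0.099, and the vesicular transporter gene Slc18a1 by 0.74 ± 0.13 in the authors' deposited table. Tph1, which makes serotonin, fell (-0.44 ± 0.062) but rose in 16T (1.61 ± 0.070) in the authors' deposited table, and the difference was called (adjusted p = 4.16e-103).

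Ion channel and exocytosis genes changed in both directions, where 37.2% of all tested genes were called. Of 58 tested potassium channel subunits, 16 rose and 12 fell. Kcnk2, a leak channel, had 2.34 ± 0.087, and Kcnn1, a calcium-activated channel, -1.30 ± 0.20 in the authors' deposited table. Of 20 calcium channel subunits 8 rose, led by Cacna2d4 (2.15 ± 0.30), and 6 fell (5 and 3 with the t distribution), led by Cacng5 (-1.26 ± 0.14) in the authors' deposited table. Of 92 tested genes of vesicles and exocytosis, 34 rose and 12 fell, with a median of 0.05. Copines, calcium-dependent membrane-binding proteins, were 3 of the 4 largest rises in that list: Cpne7 (3.59 ± 0.12), Cpne5 (2.39 ± 0.27) and Cpne2 (1.49 ± 0.24) in the authors' deposited table. Of 7 tested sodium channel subunits 1 rose and 0 fell, a called share of 14.3%. Of 23 glutamate receptor subunits 4 rose and 3 fell, a called share of 30.4%, also below that of all genes. Of 15 GABA and glycine receptor subunits 5 rose and 5 fell. Gabra5 (1.58 ± 0.24) rose, and Gabrg1 (-1.80 ± 0.29) fell in the authors' deposited table.

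Among axon guidance genes, Eph receptors mostly fell where called, while plexins and neuropilins mostly rose. Their called shares were 63.6% and 81.8%, against 37.2% of all tested genes. Of 11 tested Eph receptor genes 1 rose, Epha2 (3.62 ± 0.23), and 6 fell in the authors' deposited table (median -0.39). Those that fell in the authors' deposited table included Ephb1 (-3.10 ± 0.12), Epha5 (-1.08 ± 0.12), Ephb6 (-0.75 ± 0.078) and Ephb2 (-0.58 ± 0.047). Eph receptors are tyrosine kinases that bind membrane-bound ephrins on neighbouring cells. Of their 8 ligands 2 rose, Efnb2 (0.64 ± 0.16) and Efnb3 (0.51 ± 0.11) in the authors' deposited table, and 4 fell (2 and 0 with the t distribution). Of 20 semaphorins 5 rose and 5 fell (3 and 5 with the t distribution), with the largest falls in Sema3c (-2.00 ± 0.13) and Sema6a (-1.94 ± 0.12) in the authors' deposited table. Of 11 plexins and neuropilins, their receptors, 6 rose and 3 fell, each by less than 2-fold for the genes with a mean of at least 100. Plxnd1 (0.50 ± 0.086) and Nrp1 (0.46 ± 0.076) rose and Plxna2 (-0.63 ± 0.049) fell in the authors' deposited table. Of 8 tested netrin and Slit genes 1 rose and 3 fell, and of 10 receptor genes 4 rose and 3 fell (2 and 2 with the t distribution). The netrin receptor genes Unc5a (0.20 ± 0.079) and Unc5b (0.47 ± 0.17) rose in the authors' deposited table, calls lost with a t distribution. The netrin gene Ntn1 (-1.43 ± 0.13) and the netrin receptor genes Unc5d (-1.63 ± 0.15) and Dcc (-1.14 ± 0.11) fell in the authors' deposited table. Dcc rose in 16T (1.01 ± 0.11) in the authors' deposited table, a difference of -2.14 ± 0.15 (adjusted p = 2.09e-42). Slit1 (-0.91 ± 0.053) fell and the Slit receptor gene Robo1 (1.01 ± 0.049) rose in the authors' deposited table.

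Among adhesion molecules of neurons, IgLON, contactin and L1 genes fell more often than they rose, where 37.2% of all tested genes were called. Of 19 tested genes of the IgLON, contactin and L1 type, 4 rose and 9 fell (median -0.26), 6 of them at least 2-fold. Beside Opcml, genes that fell in the authors' deposited table were, among others, Cadm3 (-1.87 ± 0.23), Ncam2 (-1.47 ± 0.16) and Lsamp (-1.16 ± 0.26), while Cntn3 (1.59 ± 0.092) rose. Of 9 non-clustered protocadherins 0 rose and 4 fell, a called share of 44.4%. Pcdh7 (-1.37 ± 0.18) and Pcdh10 (-0.51 ± 0.098) were among those that fell in the authors' deposited table. Of 17 classical cadherins 8 rose and 4 fell (4 and 3 with the t distribution; median 0.33). Cdh18 (1.65 ± 0.21) and Cdh1 (1.20 ± 0.068), which encodes E-cadherin, rose, and Cdh20 (-1.15 ± 0.087) fell in the authors' deposited table. Of 25 leucine-rich repeat adhesion genes 5 rose, including Elfn2 (1.82 ± 0.23) and Slitrk3 (1.68 ± 0.16), and 7 fell, led by Lrrc4 (-2.95 ± 0.29) and Lingo1 (-1.55 ± 0.095) in the authors' deposited table. Teneurins, which span synapses, divided: Tenm4 (1.28 ± 0.071) and Tenm1 (1.24 ± 0.21) rose and Tenm2 (-1.19 ± 0.18) fell in the authors' deposited table. Neuronal cytoskeleton genes rose at 12 and fell at 14 of 33 tested members. Nes (2.45 ± 0.22), which encodes the intermediate filament nestin, rose, whereas Vim (-2.17 ± 0.18), Stmn2 (-1.88 ± 0.20), Nefm (-1.29 ± 0.13) and Gap43 (-1.10 ± 0.17) fell in the authors' deposited table.

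**Figure D3:**
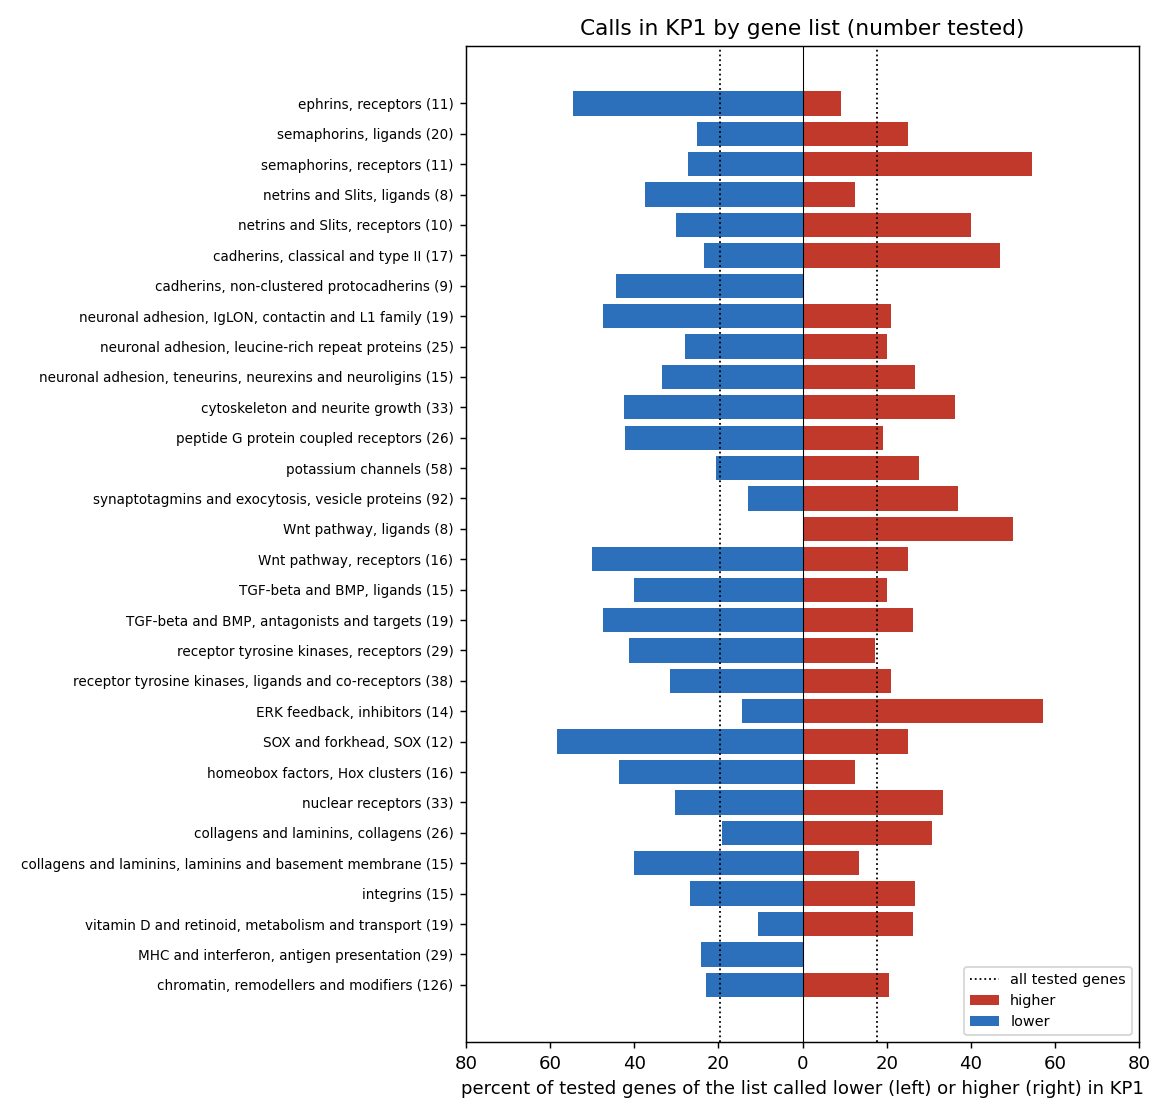
Percent of the tested genes of 30 lists that fell (blue, left) or rose (red, right) in KP1, with the number tested in brackets. Dotted lines mark all tested genes (19.6% lower, 17.6% higher); the bars of Eph receptors and SOX factors reach farther on the lower side, and those of ERK feedback inhibitors and plexins on the higher side.

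Wnt pathway genes moved in both directions, with more falls than rises among the receptors. Wnt proteins bind Frizzled and Lrp receptors and act on transcription through beta-catenin and factors of the Tcf and Lef family. Of 19 ligand genes 8 were tested, 4 rose and 0 fell (1 and 0 with the t distribution; median 0.37), Wnt4 by 1.20 ± 0.15 in the authors' deposited table. Of 16 tested receptors 4 rose and 8 fell (median -0.62), a called share of 75% against 37.2% of all genes. Fzd5 (2.42 ± 0.27) and Ror2 (1.46 ± 0.23) rose, and Fzd10 (-1.90 ± 0.18), Fzd8 (-1.38 ± 0.16), Fzd6 (-1.09 ± 0.13) and Lrp5 (-0.81 ± 0.060) fell in the authors' deposited table. Of 9 tested secreted inhibitors and agonists 1 rose and 3 fell. Intracellular feedback and effector genes rose at 5 and fell at 3 of 13 (5 and 1 with the t distribution; median 0.03). Notum, whose product removes a lipid from Wnt proteins, rose (4.86 ± 0.20), and Sfrp1 (-1.83 ± 0.20), a secreted Wnt-binding protein, fell in the authors' deposited table. The feedback inhibitors Nkd1 (1.26 ± 0.086), Apcdd1 (0.91 ± 0.12) and Axin2 (0.54 ± 0.069), which are known Wnt targets, rose in the authors' deposited table. None of these 3 was called in 16T, and each difference between the lines was called, at adjusted p of 8.62e-21, 1.6e-05 and 5.2e-06. Lef1 (-1.33 ± 0.16), Dact1 (-1.18 ± 0.21) and Axin1 (-0.16 ± 0.060) fell in the authors' deposited table, and the call of Axin1 was lost with a t distribution.

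BMP and TGF-beta genes also changed on both sides. Of 15 tested ligands 3 rose and 6 fell. Bmp7 (1.76 ± 0.10) and Bmp4 (1.55 ± 0.26) rose, whereas Bmp2 (-1.82 ± 0.12), Bmp8b (-1.58 ± 0.084), Inhbb (-1.86 ± 0.19) and Tgfb2 (-1.14 ± 0.12) fell in the authors' deposited table. Among receptors and Smads, the activin-type receptor gene Acvr1c (2.15 ± 0.24) and the inhibitory Smad gene Smad6 (2.04 ± 0.21) rose in the authors' deposited table. Of 19 antagonists and targets 5 rose, Id3 (0.31 ± 0.048) and Id1 (0.26 ± 0.059) among them, and 9 fell (3 and 7 with the t distribution), Fstl5 (-1.70 ± 0.15) among them, in the authors' deposited table. Of 11 tested Notch ligands and receptors 2 rose and 1 fell (1 and 1 with the t distribution), a called share of 27.3% against 37.2% of all genes. Of 14 Notch targets and modulators 5 rose and 2 fell (3 and 2 with the t distribution). In the Notch pathway the ligand gene Dll4 fell (-1.51 ± 0.075), the ligand gene Jag2 rose (0.48 ± 0.047) and the target gene Hey1 rose (0.58 ± 0.11) in the authors' deposited table. The Fringe enzymes, which modify Notch, divided: Mfng had 0.69 ± 0.054 and Lfng -0.66 ± 0.060 in the authors' deposited table.

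Receptor tyrosine kinases fell more often than they rose. Of 29 tested 5 rose and 12 fell (median -0.32), a called share of 58.6% against 37.2% of all genes. Insrr (1.32 ± 0.052) and Erbb3 (1.05 ± 0.15) rose, as did Ret (1.22 ± 0.081), the receptor of the GDNF family, and the gene of its ligand neurturin, Nrtn (1.71 ± 0.24), in the authors' deposited table. Of the fibroblast growth factor receptor genes Fgfr3 (-0.37 ± 0.11) and 3 others fell, and Fgfr4 (-0.73 ± 0.31) was not called in the authors' deposited table. Fgfrl1 had -2.05 ± 0.20, Fgfr2 -1.07 ± 0.097 and Fgfr1 -0.81 ± 0.056 in the authors' deposited table. Fgfr1 rose in 16T (0.33 ± 0.059) in the authors' deposited table, and the difference of -1.14 ± 0.081 was called. Of 38 ligands and co-receptors 8 rose, including Pgf (1.28 ± 0.21), placental growth factor, and 12 fell, including Kitl (-1.02 ± 0.090), the ligand of KIT, in the authors' deposited table. Feedback inhibitors of the ERK cascade rose at 8 of 14 genes and fell at 2 (4 and 2 with the t distribution; median 0.39). Spry1 (1.10 ± 0.20) and the phosphatase gene Dusp6 (0.90 ± 0.10) rose and Dusp5 (-0.77 ± 0.18) fell in the authors' deposited table. Among binding proteins of insulin-like growth factors, Igfbp5 fell by 1.07 ± 0.031 and Igfbp2 by 1.06 ± 0.081, and in 16T both rose (0.48 ± 0.031 and 1.55 ± 0.074) in the authors' deposited table.

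SOX transcription factor genes mostly fell where called. Of 12 tested SOX genes 3 rose and 7 fell (median -0.54), a called share of 83.3% against 37.2% of all genes. Sox2, a progenitor factor, rose by 1.83 ± 0.20, whereas Sox9 (-1.73 ± 0.17), Sox21 (-1.47 ± 0.33) and Sox13 (-0.79 ± 0.14) fell in the authors' deposited table. Sox2 had -0.34 ± 0.11 in 16T in the authors' deposited table, the opposite direction, and the difference was called (adjusted p = 2.82e-20). Of 16 tested Hox genes 2 rose and 7 fell (1 and 2 with the t distribution), with Hoxb13 (-1.06 ± 0.25) and Hoxd11 (-1.02 ± 0.15) at the low end in the authors' deposited table. Of 38 other homeobox genes 12 rose, including Dlx5 (1.95 ± 0.28) and Pbx3 (1.33 ± 0.086), and 7 fell, led by Onecut1 (-1.75 ± 0.30) (8 and 4 with the t distribution) in the authors' deposited table. Nkx2-1, the lung lineage factor, rose by 0.68 ± 0.051 in the authors' deposited table. Among Eya coactivators and the homeobox factors they bind, Eya2 (-3.63 ± 0.12) and Eya1 (-0.39 ± 0.079) fell while Six4 (0.53 ± 0.070) rose in the authors' deposited table. Of 19 bHLH genes 8 rose and 4 fell (5 and 3 with the t distribution), Atoh8 the most (-1.69 ± 0.11) in the authors' deposited table. Of 31 ETS and AP-1 genes 12 rose, among them Ets1 (0.96 ± 0.080) and Etv1 (0.65 ± 0.085), and 5 fell (7 and 5 with the t distribution), among them Elf3 (-1.11 ± 0.083) in the authors' deposited table.

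Nuclear receptors were near balance, with 11 rises and 10 falls among 33 tested genes, a called share of 63.6% against 37.2% of all genes. Vdr, the vitamin D receptor gene, had the largest change of the list, and Nr3c2, the mineralocorticoid receptor gene, fell too (-1.04 ± 0.15) in the authors' deposited table. Nr0b2 (1.60 ± 0.28), an orphan receptor without a DNA-binding domain, and the retinoic acid receptor gene Rara (0.65 ± 0.12) rose in the authors' deposited table. Of 19 tested genes of retinoid handling 5 rose and 2 fell (5 and 1 with the t distribution), a called share of 36.8% that was close to that of all genes. The enzymes that make retinoic acid, Aldh1a1 (2.07 ± 0.26) and Aldh1a2 (1.11 ± 0.061), the enzyme that degrades it, Cyp26b1 (2.03 ± 0.28), and the retinol uptake receptor Stra6 (1.17 ± 0.20) rose in the authors' deposited table.

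In cyclic AMP signalling, phosphodiesterases, which degrade the messenger, rose at 5 and fell at 6 of 18 tested genes. Their called share was 61.1%, against 37.2% of all tested genes. Pde3a (-3.25 ± 0.19) and Pde4b (-2.49 ± 0.20) fell the most, and Pde10a rose (0.75 ± 0.14) in the authors' deposited table. The cyclase gene Adcy1 fell (-1.30 ± 0.056) and Adcy5 rose (0.86 ± 0.11) in the authors' deposited table. Sphkap, an anchor of protein kinase A, fell by 3.20 ± 0.15, and Pkib, an inhibitor of the kinase, rose by 0.99 ± 0.11 in the authors' deposited table. Among 39 tested RGS and G protein subunit genes 10 rose and 9 fell, Rgs20 (-1.69 ± 0.16) and Gng4 (-1.38 ± 0.11) the most, in the authors' deposited table.

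Of 26 tested collagen genes 8 rose and 5 fell (4 and 5 with the t distribution). Laminin and basement membrane genes rose at 2 and fell at 6 of 15 (2 and 3 with the t distribution; median -0.37). The called shares were 50% and 53.3%, against 37.2% of all tested genes. Col9a2, a cartilage-type collagen, rose by 2.56 ± 0.15, and Col8a1 by 0.84 ± 0.047 in the authors' deposited table. The basement membrane genes Col4a1 (-0.80 ± 0.080), Col4a2 (-0.83 ± 0.081), Lama5 (-0.81 ± 0.042) and Agrn (-0.46 ± 0.072) fell in the authors' deposited table. Vcan, the proteoglycan versican, fell by 2.43 ± 0.085, and Smoc2, a secreted calcium-binding matrix protein, rose by 2.21 ± 0.14 in the authors' deposited table. Of 41 metalloproteases and inhibitors 11 rose, 7 at least 2-fold, with Adamts5 (1.64 ± 0.22) and Adamts17 (1.14 ± 0.17), and 8 fell (8 and 4 with the t distribution) in the authors' deposited table. Tgm2, which crosslinks proteins, rose (4.72 ± 0.30), and the collagen hydroxylases Plod2 (-0.93 ± 0.15), P4ha2 (-0.52 ± 0.090) and P4ha1 (-0.34 ± 0.048) fell in the authors' deposited table. Of 15 integrin subunits 4 rose and 4 fell, with Itga4 at -1.73 ± 0.26 and Itga6 at -1.04 ± 0.063 in the authors' deposited table. Complement and coagulation genes rose at 7 of 17 and fell at 2 (4 and 2 with the t distribution), with C3 at 3.02 ± 0.29 and F5 at 1.85 ± 0.29 in the authors' deposited table.

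Epithelial junction genes were near balance, with 9 rises and 10 falls among 43 tested genes. The desmosome genes Pkp1 (-1.82 ± 0.23) and Dsp (-1.58 ± 0.051) and the keratin gene Krt18 (-0.95 ± 0.044) fell, and the transcription factor gene Grhl1 (0.96 ± 0.11) rose in the authors' deposited table. Of 13 YAP and TEAD genes 1 rose, Amotl2 (1.26 ± 0.090), and 5 fell (1 and 1 with the t distribution), including Amotl1 (-1.01 ± 0.096), in the authors' deposited table. Genes of antigen presentation fell at 7 of 29 tested and rose at 0 (0 and 4 with the t distribution), a called share of 24.1% against 37.2% of all genes (median -0.27). They included the peptide transporter gene Tap2 (-0.84 ± 0.18), B2m (-0.47 ± 0.12) and the class I gene H2-K1 (-0.69 ± 0.060), which is uncertain because class I genes share sequence, in the authors' deposited table. Among imprinted genes 7 rose and 5 fell of 19 tested (5 and 2 with the t distribution). Peg10 (2.84 ± 0.051), Nnat (1.19 ± 0.040) and Grb10 (1.05 ± 0.090) rose and Mest (-2.26 ± 0.097) fell in the authors' deposited table. In this line without p53, known p53 target genes rose at 5 and fell at 3 of 22. Their called share of 36.4% was close to the 37.2% of all genes. Cdkn1a, a cell cycle inhibitor, rose by 1.19 ± 0.090, and Eda2r, a TNF receptor family member, fell by 3.43 ± 0.25 in the authors' deposited table. Chromatin regulators were close to all genes, with 26 rises and 29 falls among 126 (19 and 18 with the t distribution), of which 1 changed at least 2-fold, the methyltransferase gene Setd7 (1.37 ± 0.055) in the authors' deposited table. Of 18 tested BCL2 family genes 4 rose and 4 fell. Bik (1.38 ± 0.17) and Bcl2l11 (0.82 ± 0.12), which promote cell death, rose, and Bmf (-1.28 ± 0.087), which also does, fell in the authors' deposited table.

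The knockdown effect in KP1 was next set against that in 16T, where Nfib had -1.08 ± 0.035 in the authors' deposited table. The lines share no samples, so the difference of the deposited effects was divided by the root of their summed squared SEs, referred to the normal distribution and adjusted by Benjamini and Hochberg's method. Of 15008 genes with a mean of at least 10, 4417 (29.4%) differed, 2320 with KP1 above 16T and 2097 below. The more frequent side turned with the t distribution (873 above and 997 below), for differences of at least 1 (302 and 477) and after recentring (1999 and 2357). Of the 2558 genes higher in KP1, 1259 were higher in 16T (49.2% of the KP1 list and 43.3% of the 16T list) and 310 were lower. Of the 2844 lower in KP1, 1434 were lower in 16T (50.4% and 39.1% of the lists) and 349 were higher. Among the 15 largest KP1 rises 13, and among the 15 largest falls 14, were larger in KP1 than in 16T by the test of the difference. These genes were chosen for their size in KP1, which favours that direction.

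Most of the largest differences towards KP1 were in genes that rose in KP1 and were not called higher in 16T. Chrnd had a difference of 3.43 ± 0.40 and Dlx5 one of 2.92 ± 0.43. Smoc2 (2.80 ± 0.43), Col9a2 (2.58 ± 0.22) and Cdhr1 (2.53 ± 0.15), a cadherin-related gene of photoreceptors, followed. For Smoc2 the SE was 0.14 in KP1 and 0.40 in 16T (-0.58) in the authors' deposited table. Deposited changes were drawn towards 0 where the SE is large, so its change in 16T is poorly known. Themis2 (2.58 ± 0.69), an immune signalling adaptor, had the largest SE of these differences. Tgm2 (3.13 ± 0.40) and Notum (2.65 ± 0.25) rose in both lines and more in KP1. On the other side Gsdma, a pore-forming gasdermin, fell in KP1 (-1.35 ± 0.15) and rose in 16T (2.85 ± 0.27) in the authors' deposited table. The same was true of Npnt (-1.79 ± 0.12 and 1.47 ± 0.13), an integrin ligand, and Selenbp1 (-0.72 ± 0.091 and 2.46 ± 0.094), a selenium-binding protein, in the authors' deposited table. Ndrg2 (-0.47 ± 0.11 and 3.14 ± 0.13), P4ha2 (-0.52 ± 0.090 and 2.60 ± 0.098) and the neuropeptide gene Cartpt (-0.55 ± 0.17 and 2.62 ± 0.18) also moved in opposite directions in the authors' deposited table. The KP1 call of Cartpt was lost with a t distribution. Cdh1 rose in both lines, by 1.20 ± 0.068 in KP1 and 4.83 ± 0.13 in 16T in the authors' deposited table. Slc14a1, with a difference of -3.31 ± 0.27, fell in both.

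Of the families, transporters of sugars, monocarboxylates, urea and zinc fell at 17 of 47 tested genes and rose at 4 in KP1 (median -0.21). Their called share was 44.7%, against 37.2% of all tested genes. With the t distribution 7 fell and 3 rose, so 10 of 47 were called, where 3301 of all 14504 genes were. The inositol transporter gene Slc5a3 had -0.88 ± 0.11 in the authors' deposited table. Annexin A2 was among the genes with opposite changes: Anxa2 fell in KP1 (-0.85 ± 0.18) and rose in 16T (1.56 ± 0.16) in the authors' deposited table. Aldh2, the mitochondrial aldehyde dehydrogenase gene, had the same pattern (-1.43 ± 0.21 and 0.45 ± 0.19) in the authors' deposited table, with an adjusted p of 0.048 in 16T. By contrast Aldh1a7 (2.47 ± 0.15 and 2.21 ± 0.100) and the sphingomyelin synthase gene Sgms2 (1.14 ± 0.092 and 1.94 ± 0.100) rose in both lines in the authors' deposited table. Piezo2, a mechanically gated channel, rose by 1.14 ± 0.23 in KP1 and 3.36 ± 0.13 in 16T in the authors' deposited table, and the difference was called (adjusted p = 3.15e-15). Prdm1, which encodes the repressor Blimp-1, fell in both (-2.07 ± 0.29 and -0.94 ± 0.27) in the authors' deposited table.

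With Nfib raised in KP22, 1086 of the genes higher in KP1 were lower (42.5% of the KP1 list and 34.7% of the KP22 list) and 456 were higher. Of the genes lower in KP1, 1155 were higher in KP22 (40.6% and 34.5% of the lists) and 493 were lower. Of the 1259 genes higher in both knockdown lines, 691 were lower with cDNA, where 21.6% of all tested genes were. Of the 1434 lower in both, 773 were higher with cDNA, where 23.1% of all tested genes were. Opposite changes were ranked by the product of the KP1 and KP22 changes among genes called in both with a mean of at least 100. The first 6 rises in KP1 included Chrna3 (-2.99 ± 0.30 in KP22), Car8 (2.57 ± 0.12 in KP1 and -2.74 ± 0.18 in KP22), a carbonic anhydrase-related gene, Chrnb4 (-1.88 ± 0.26 in KP22) and Epha2 (-1.84 ± 0.24 in KP22) in the authors' deposited table. The others were Htr5a, second in that order (1.55 ± 0.48 in KP1 and -4.73 ± 0.46 in KP22), and Ccbe1, the sixth (1.15 ± 0.45 and -5.46 ± 0.43), in the authors' deposited table, but their KP1 calls were lost with a t distribution. Among falls the first 6 included Necab2 (-2.62 ± 0.081 in KP1 and 4.26 ± 0.14 in KP22), a neuronal calcium-binding protein, and Lrp2 (-2.56 ± 0.27 and 4.13 ± 0.43), the endocytic receptor megalin, in the authors' deposited table. Eda2r, Serpina9, Eya2 and Cxcr4 completed them, with KP22 values of 2.99 ± 0.41, 3.18 ± 0.32, 2.31 ± 0.23 and 2.52 ± 0.14 in the authors' deposited table. The 2 manipulations were made in different lines, so line and manipulation cannot be told apart in these values.

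Of all 5402 called genes 1053 were called in neither other line. Of the 864 that changed at least 2-fold in KP1, 227 were called in neither other line. Among those with a mean of at least 100, 50 also differed from 16T by the test of the difference, 23 risen and 27 fallen. Those that rose in the authors' deposited table included Apoa5 (2.53 ± 0.32), an apolipoprotein, Far2 (2.11 ± 0.18), a fatty alcohol enzyme, Nell1 (1.97 ± 0.15), a secreted glycoprotein, and Bmp7. Those that fell in the authors' deposited table included Vim (-2.17 ± 0.18; 16T -0.51 ± 0.22), the intermediate filament vimentin, Sox9 (-1.73 ± 0.17; 16T -0.17 ± 0.17) and Lef1 (-1.33 ± 0.16; 16T -0.35 ± 0.15). Fat4 (-1.87 ± 0.21), an atypical cadherin, and S100a6 (-1.60 ± 0.37), a calcium-binding protein, also fell in the authors' deposited table. These examples were chosen after their values were seen. Selection by a call in KP1 and none elsewhere does not show that the other lines had no change. In KP22 the SEs of Vim, Sox9, Lef1 and Nell1 were 0.47, 0.47, 0.47 and 0.46 in the authors' deposited table, so a change there could be missed.

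Neighbouring genes sometimes moved together. Among tested genes in order along each chromosome, 11 runs of at least 3 neighbours changed at least 2-fold in 1 direction, 34 genes in all. The neuropeptide Y receptor genes Npy5r (2.52 ± 0.43) and Npy1r lie on chromosome 8 with Naf1 (1.27 ± 0.083), and all 3 rose in the authors' deposited table. Irx1, Gm20554 (-1.37 ± 0.12) and Irx2 (-1.33 ± 0.060), Iroquois homeobox genes and a transcript between them on chromosome 13, all fell in the authors' deposited table. Only these 2 runs kept every call with a t distribution, which removed the call of 11 of the 34 genes. Cxcr4, Thsd7b (-1.86 ± 0.18) and Daf2 on chromosome 1 fell in the authors' deposited table, the last at low counts. Dlx6os1, Dlx6 (1.37 ± 0.31) and Dlx5 on chromosome 6 rose, as did Slc6a5, Nell1 and Nell1os on chromosome 7, in the authors' deposited table. Whether counting used strand is not given in the sources used here, so reads of Dlx6os1 and Nell1os cannot be told apart from those of the genes they overlap. Spry2, Slitrk1 (1.81 ± 0.36) and Slitrk6 (1.21 ± 0.077) with 9330188P03Rik formed a rising run on chromosome 14 in the authors' deposited table. Nefm, A230070E04Rik and Stc1 (-1.05 ± 0.20) on the same chromosome fell, as did Igsf11, Lsamp and Gap43 on chromosome 16, in the authors' deposited table. On chromosome 11, Ramp3, Adcy1 and Igfbp3 (-1.32 ± 0.36) fell, and so did Ttll6, Hoxb13 and Gm53 in the authors' deposited table. A run of 3 on chromosome 2, 0610010B08Rik, Gm14440 and Gm14431, consists of near-identical zinc finger copies and is uncertain.

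Along the genome, parts of chromosomes 8 and 14 had more rises than falls in KP1. On chromosome 8 between 60 and 100 Mb, 132 of 263 genes with a mean of at least 100 rose (50.2%) and 17 fell (6.46%), with a median of 0.20. The middle 50% of these genes lay between 0.04 and 0.37, so the shift was small and spread over many genes. In the rest of chromosome 8, 72 of 419 rose and 70 fell (median -0.02), and on all other chromosomes 2195 of 11599 rose and 2562 fell (median -0.02). The medians of the same 263 genes were -0.06 in 16T and 0.02 in KP22. By the test of the difference 123 of them were above 16T in KP1 and 15 below. The 4 windows of 10 Mb in this part had medians of 0.08, 0.20, 0.24 and 0.14. Outside it, medians of windows with at least 20 genes ran from -0.22 to 0.19, so 2 of the 4 lie within that range, and those of windows with 10 to 19 genes ran from -0.43 to 0.31. On chromosome 14 between 70 and 130 Mb, where most windows hold fewer than 20 genes, 109 genes with a mean of at least 100 had a median of 0.17, and 41 rose and 7 fell. The median of these genes was -0.11 in 16T and 0.18 in KP22. Npy1r and the chemokine gene Cx3cl1 (2.88 ± 0.14) lie within the part of chromosome 8 in the authors' deposited table. The boundaries were set after the values were seen, and the source of the shifts was not tested. Without the genes of the chromosome 8 part 2424 rose and 2825 fell in KP1.

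**Figure D4:**
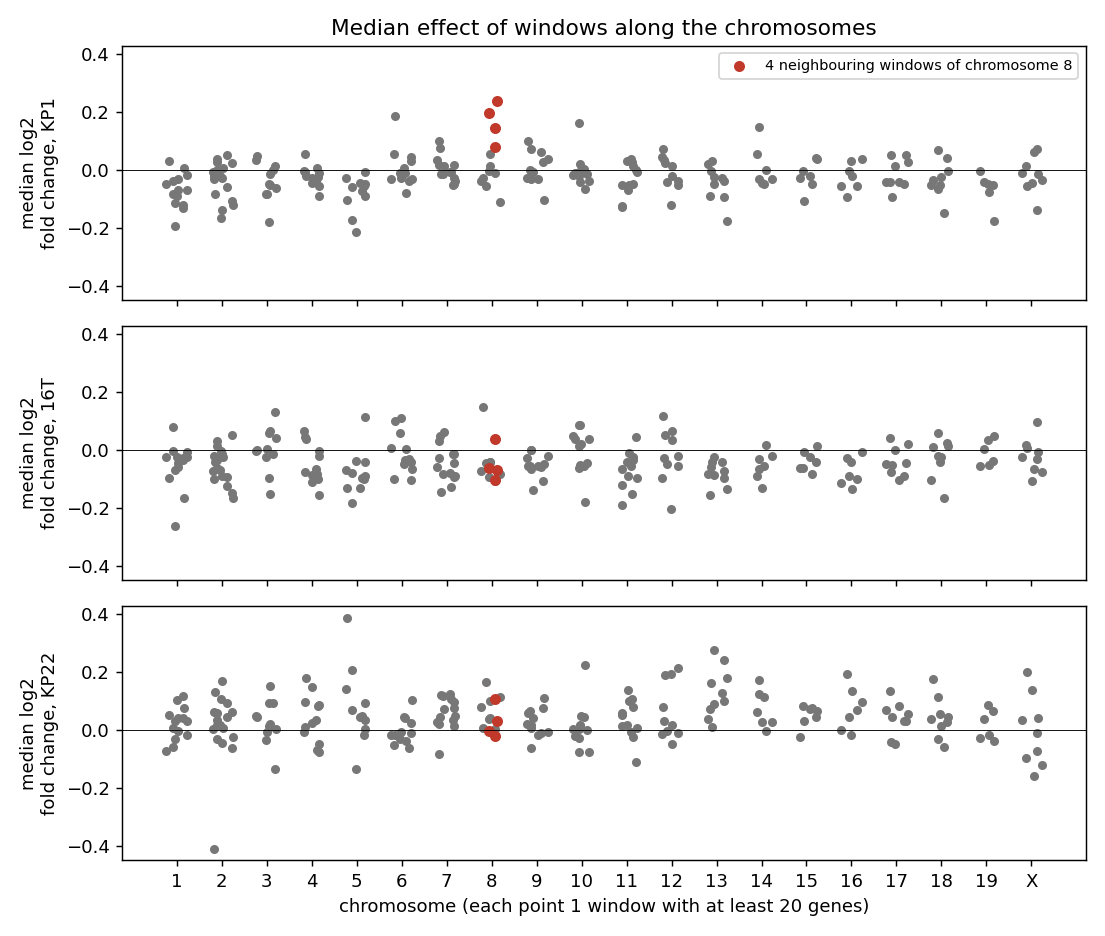
Median log2 fold change (vertical) of windows of 10 Mb with at least 20 genes, by chromosome (horizontal), in KP1, 16T and KP22 from top to bottom. The 4 red points are the windows of chromosome 8 from 60 to 100 Mb, which lie above 0 in KP1 and on both sides of 0 in the other lines.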

How the data were processed

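RNA-seq of 4 KP1 samples was used, with 2 samples per group, and the 16T and KP22 results of the same kind for comparison. The submitters' processing notes name the build mm10 and, without versions, DESeq2, DESeq, bedtools and TopHat. The authors counted reads over 211975 exon intervals, and the deposited table's own name refers to cqn, a normalization for GC content and length. The deposited table holds fitted results: per feature, 1 mean normalized count over samples (a signal with no depth), the log2 fold change with its SE, a Wald score, and a p-value and adjusted p-value, also for a test against 0.5. Largest SEs of 0.521 and smaller SEs at the lowest means show that the deposited log2 fold changes were drawn towards 0, so changes of low genes are understated. Other deposited columns (names and positions, coded as other) were used as annotation. Features with 1 gene name, used here, held 93.7% of the summed mean; 4886 with joined names were an alternative. 0 columns of values per sample were used, so tests on samples, as first planned, could not be run.

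Genes were called at an adjusted p below 0.05. KP1 minus 16T was tested from the deposited effects and SEs (mean of at least 10), a calculation that was also run on simulated data. The simulated noise was drawn with the same SEs that the calculation divides by. It therefore checks the calculation and cannot show whether the SEs are right. Named genes were the 15 largest called changes per direction (mean of at least 100), 8 per direction for the difference, 6 for KP22, and up to 4 per direction in each of 84 lists; other genes named were chosen after their values were seen. The members and lists were chosen with earlier results of these data known. Alternatives were a t distribution with 6 degrees of freedom, recentring, other minimum means and joined names. Python 3.11.15, numpy 2.4.6, pandas 2.3.3, scipy 1.17.1 and matplotlib 3.10.9 were used.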

Additional observations from a re-analysis of the deposited data

Results flagged for a closer look

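The effect of the Nfib shRNA differed between KP1 and 16T by the test of the difference (normal reference, Benjamini-Hochberg adjustment) at 4417 genes, and the 16 named for the size of their difference are given here as KP1 minus 16T on the log2 scale. KP1 was above 16T for Chrnd by 3.43, Tgm2 by 3.13, Dlx5 by 2.92 and Smoc2 by 2.80. It was above 16T for Notum by 2.65, Themis2 by 2.58, Col9a2 by 2.58 and Cdhr1 by 2.53. KP1 was below 16T for Gsdma (-4.20), Cdh1 (-3.64), Ndrg2 (-3.61) and Slc14a1 (-3.31). It was below for Npnt (-3.26), Selenbp1 (-3.18), Cartpt (-3.17) and P4ha2 (-3.12) as well. The fall of Nfib itself was larger in KP1 than in 16T (adjusted p of the difference = 1.9e-05), and its part in these differences was not tested.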

How the results depend on the processing

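Under a t reference with 6 degrees of freedom the 5402 genes called in KP1 became 3301, and the 4417 that differed between KP1 and 16T became 1870; fewer degrees of freedom make each call harder by construction. A minimum change of 1 left 864 and 779 genes, and the authors' own test against 0.5 called 709. Runs of 3 neighbours numbered 281 when changes of any size counted, against 11. Recentring, bins of exon length and mean, other minimum means, joined names and leaving out the chromosome 8 part gave counts within 1.5 times the reported ones. Recentring on the median gene turned the split of KP1 calls to 2794 higher and 2652 lower. The split of the difference from 16T, 2320 above and 2097 below, turned to 1999 and 2357 after recentring, 873 and 997 with the t reference, and 302 and 477 for differences of at least 1. Of 48 named genes 0 changed direction under these settings. The t distribution leaves changes as they are and the median gene subtracted in recentring stood at -0.02, so this was largely fixed in advance. Cartpt, Ccbe1 and Htr5a lost their call with the t distribution, as did 89 of 601 called genes prepared for printing. Of 84 lists 34 had more falls than rises, 32 with the t distribution and 31 after recentring.

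No paired analysis was possible because the deposited columns hold fitted results and no values per sample; for the same reason leaving out a replicate was not run. Libraries' depths are unknown, and each comparison rests on 2 samples per group. Whether the spread behind the p-values also draws on libraries of the other lines is not known here.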
